A study of Mus musculus with 7 samples.

Results

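RelB regions lost after LPS were stretches of chromatin where the signal of chromatin immunoprecipitation (ChIP) for RelB was lower by 2-fold or more after 1 h of lipopolysaccharide (LPS) than before it, in wild-type (WT) bone marrow-derived dendritic cells (BMDCs). There were 863 of them among the 93611 regions measured. A region belonged to the set when the WT RelB library at 0 h gave 4 RPKM or more (reads adjusted for the length of the region and the depth of the library), when this was 2-fold or more over input, and when the WT RelB value at 1 h was 0.5 times that at 0 h or less, each after 0.5 RPKM was added. The first 2 conditions were met by 55583 regions, and 1.55% of these met the last. The other 54720 are called kept regions, whatever else their RelB signal did. The members were chosen by the values of the WT RelB libraries and the input, so those values are a description here, and the RelA libraries, the RelBko libraries and the annotation carry the comparisons.

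The study asked what a lack of RelB does to where RelA binds DNA. RelBko cells, in which RelB is missing, gave a RelB library and a RelA library after 1 h with LPS at 10 ng/mL and a RelB library at 0 h without LPS, and WT cells gave the same 3, beside 1 input library of WT cells with no time or treatment in its labels. All were C57BL/6 mouse marrow cells grown with IL-4 (10 ng/ml) and GM-CSF (20 ng/ml), so every group, untreated ones included, had seen both cytokines, and the way in which the gene was removed, the age of the mice and any pooling were not given in the sources used here. Each group held 1 library, so no difference between times or genotypes has a replicate check and none is tested. RelA libraries at 0 h were not analysed here. ChIP gives no expression, so the labelled cell type could not be checked against its markers. The treatment text names a reagent of another kind (an ODN) beside LPS, and the stimulus is called LPS as in the sample labels.

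The NF-kB proteins RelA and RelB bind so-called kB sites in DNA, as dimers with p50 or p52. Inhibitors such as IkB-alpha hold RelA in the cytoplasm until a signal such as LPS destroys them, whereas RelB is best known from the noncanonical pathway, which runs through the adaptors TRAF2 and TRAF3, and from the maturation of dendritic cells. Dendritic cells take up antigen, and after a microbial signal they present it to T cells.

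The deposited totals behind the values ranged from 13188833 reads in the input to 35064429 in the WT RelB library at 0 h. The WT RelB libraries held 42.4% of their reads in the regions at 1 h and 38.4% at 0 h. The RelA libraries held 37.2% in RelBko cells and 37.9% in WT cells. The RelBko RelB libraries held 4.62% at 1 h and 7.41% at 0 h, against 3.52% in the input, which is the check of the missing protein. At the members, the median reads per region were 38 at 1 h and 114 at 0 h for WT RelB, 23 in RelBko and 20 in WT cells for RelA, 6 at 1 h and 8 at 0 h for RelBko RelB, and 4 in the input.

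Promoters of members with a kB site are printed first, since they show the kind of sequence that NF-kB dimers bind. Of the 27 members in promoters, 22 lay within 300 bp of a transcription start site (TSS), and 12 of their genes had exactly 1 promoter in the RefSeq table. A kB site stood within the 250 bases before the start in 5 of these 12 promoters, which were those of Traf3, Zfp429, Rsl1, Samd15 and Lif. Each is given 5' to 3' on the strand of its gene, from RefSeq in build GRCm38.p6, with the kB site in capitals. They lie at chr12:111166120-111166369 (plus strand), chr13:67399768-67400017 (minus), chr13:67172932-67173181 (plus), chr12:87200258-87200507 (plus) and chr11:4257318-4257567 (plus) in that build.
Traf3: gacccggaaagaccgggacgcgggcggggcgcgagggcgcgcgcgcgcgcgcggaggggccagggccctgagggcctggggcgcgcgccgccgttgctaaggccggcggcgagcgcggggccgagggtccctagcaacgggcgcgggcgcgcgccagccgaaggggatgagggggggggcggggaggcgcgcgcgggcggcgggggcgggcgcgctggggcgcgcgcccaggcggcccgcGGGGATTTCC
Zfp429: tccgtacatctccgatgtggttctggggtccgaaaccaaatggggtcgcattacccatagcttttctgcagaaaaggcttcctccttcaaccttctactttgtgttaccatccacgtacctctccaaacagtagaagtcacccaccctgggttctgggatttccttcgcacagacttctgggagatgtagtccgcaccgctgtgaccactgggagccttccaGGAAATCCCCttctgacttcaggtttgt
Rsl1: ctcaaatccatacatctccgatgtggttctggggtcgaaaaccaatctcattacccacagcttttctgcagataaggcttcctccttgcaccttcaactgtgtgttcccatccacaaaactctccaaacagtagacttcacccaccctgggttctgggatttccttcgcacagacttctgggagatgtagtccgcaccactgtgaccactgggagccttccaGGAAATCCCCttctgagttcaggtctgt
Samd15: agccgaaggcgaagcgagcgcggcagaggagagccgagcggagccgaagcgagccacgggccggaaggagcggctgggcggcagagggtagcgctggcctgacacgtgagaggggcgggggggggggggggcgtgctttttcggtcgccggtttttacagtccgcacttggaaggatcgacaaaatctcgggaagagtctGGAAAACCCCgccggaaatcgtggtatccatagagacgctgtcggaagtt
Lif: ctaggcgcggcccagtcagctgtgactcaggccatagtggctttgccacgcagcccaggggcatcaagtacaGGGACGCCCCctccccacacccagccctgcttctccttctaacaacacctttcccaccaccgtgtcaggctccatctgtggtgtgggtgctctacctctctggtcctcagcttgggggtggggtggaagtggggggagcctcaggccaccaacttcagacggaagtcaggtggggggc
The site ended 1 base before the start in Traf3, spanned bases -28 to -19 in Zfp429 and Rsl1, bases -50 to -41 in Samd15 and bases -178 to -169 in Lif. Zfp429 and Rsl1 are zinc finger genes near each other on chromosome 13 with closely alike promoters, so reads may be split between them and they are not independent examples.

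A kB site stood in 41.7% of the 12 promoters with a lost region (95% Wilson interval 19.3 to 68.0), in 11.2% of 4185 promoters with a kept region, and in 7.25% of all 32851 promoters of the table. The 10 other motifs were searched on both strands in the same window. The 7 letters GAGGAAG of PU.1 stood in 3 of the 12 promoters, against 11.8% of promoters with a kept region. The 7 letters TGTGGTT of RUNX stood in 3, against 3.27%, and both of these were found in Zfp429 and in Rsl1. The AP-1 letters TGANTCA stood in 2, against 4.25%, the GC box GGGCGG in 7, against 66.5%, and the E-box CACGTG in 3, against 9.73%. The RelB-type kB site, the ISRE, the C/EBP motif, the CTCF core and the glucocorticoid element stood in 0 of the 12, which with so few promoters allows a share of up to 24.2% each. With 12 promoters these shares are wide, and a match is not evidence of binding at that site. The shares were not taken at matched RelB strength. Median WT RelB at 0 h was 32.7 RPKM over all 27 lost promoter regions, against 11.1 RPKM over kept ones.

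**Figure D1:**
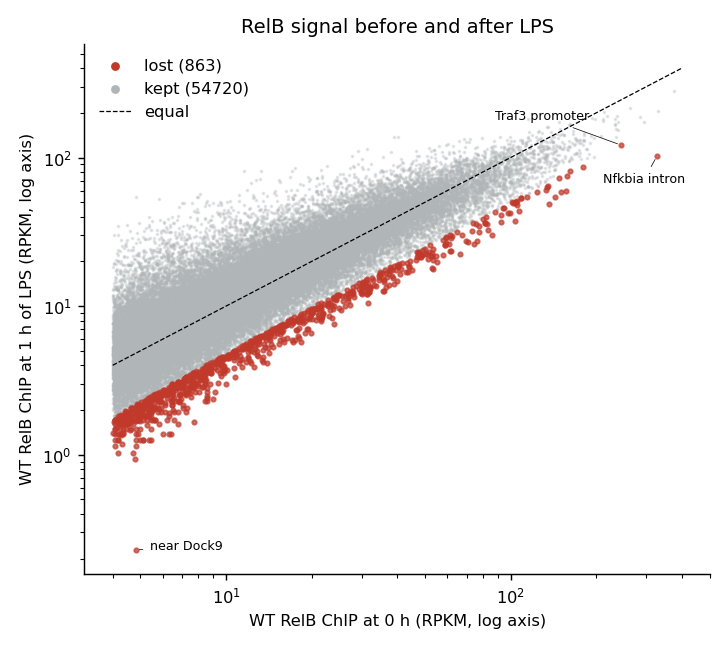
RelB ChIP signal (RPKM, log axes) in WT cells at 1 h of LPS (vertical) against 0 h (horizontal) for the 863 lost regions (red) and the 54720 kept regions (grey), with the line of equal signal dashed. The lost regions form the lower edge of one continuous cloud, from 4.01 to 326 RPKM at 0 h.

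Most lost regions kept part of their RelB signal. Their median was 3.94 RPKM at 1 h, against 9.51 RPKM at 0 h in WT cells, a median log2 ratio of -1.14. Only 33 of the 863 were lower by 3-fold or more. At 1 h 622 members (72.1%) were still enriched, that is, at 2 RPKM or more and 2-fold or more over input. The share was 99.0% of kept and 81.7% of all regions, and the rule used these RelB values. At 1 h, 155 members lay under 2 RPKM. The word lost therefore stands for the rule and, at most members, not for an absence of RelB. Among all 93611 regions, 1.61% were lower by 2-fold or more at 1 h and 10.4% were higher by as much. The plot of RelB signal before and after LPS shows no gap between lost and kept regions.

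The limits of the rule cut through close values. Nkiras1, which lies just inside the 2-fold limit, had 8.21 RPKM at 1 h, against 16.9 RPKM at 0 h, and the nearest region just outside, near Asprv1, had 21.7 RPKM at 1 h, against 43.9 RPKM at 0 h. Just inside the limit of 4 RPKM lay regions near Cdh26, Csf1 and Smap1, with 4.01, 4.03 and 4.07 RPKM at 0 h, and just outside it lay regions near Thoc2, Vtcn1 and Lilr4b, with 3.9996, 3.984 and 3.982 RPKM. Just inside the limit over input lay regions near 4921525O09Rik, Gda and Endod1, with log2 ratios over input of 1.06, 1.13 and 1.13, against 0.66 and 0.62 for regions near Lrrc45 and Ankrd50 just outside. The fewest reads behind a member at 0 h were 24. For all 863 members the exact 95% interval of the ratio of RelB reads lay below 1, which covers counting error only and follows in part from the choice of members.

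The member with the highest RelB signal at rest lay in Nfkbia, the gene of IkB-alpha, the inhibitor that NF-kB itself induces. This region, chr12:56592729-56593084 (mm9), sits in an intron 728 bp from the TSS. RelB gave 102 RPKM at 1 h, against 326 RPKM at 0 h in WT cells, a ratio of reads per library total of 0.312 (0.291 to 0.335). RelA gave 106 RPKM in RelBko and 101 RPKM in WT cells at 1 h, a ratio of 1.05 (0.951 to 1.17). RelB ChIP in RelBko cells left 5.62 RPKM at 1 h, against 20.6 RPKM at 0 h, over 1.70 RPKM in the input. So the RelA values of the 2 genotypes lay within counting error of each other where RelB in WT cells was far lower after LPS. The Nfkbia promoter region 94 bp before the TSS was kept, with 207 RPKM at 1 h, against 328 RPKM at 0 h of WT RelB. Thus regions under 1 kb apart with like signal at rest differed in what remained, and the other 13 regions of the gene held no lost one.

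Genes of the noncanonical pathway's adaptors were also among the strongest members. TRAF3 holds the noncanonical pathway off at rest by marking its kinase NIK for destruction. At the Traf3 promoter, chr12:112404410-112404764 (mm9), WT RelB gave 121 RPKM at 1 h, against 244 RPKM at 0 h, close to the 2-fold limit. RelA there gave 70.3 RPKM in RelBko and 76.2 RPKM in WT cells, a ratio of 0.922 (0.816 to 1.04), and RelBko RelB gave 5.92 RPKM at 1 h, against 10.5 RPKM at 0 h over an input of 1.71 RPKM. A Traf3 region at -9577 bp from the TSS differed the other way, with 26.3 RPKM at 1 h, against 2.09 RPKM at 0 h of WT RelB, so WT RelB differed in opposite directions within 1 gene. An intron of Traf2, whose protein works with TRAF3, gave 59.0 RPKM at 1 h, against 150 RPKM at 0 h of WT RelB. RelA at this Traf2 region was 27.5 RPKM in RelBko and 37.6 RPKM in WT cells, a ratio of 0.731 (0.613 to 0.873).

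The Relb promoter was itself a member. At chr7:20214655-20215034 (mm9), WT RelB gave 49.3 RPKM at 1 h, against 104 RPKM at 0 h. RelA was 70.6 RPKM in RelBko and 89.0 RPKM in WT cells, a ratio of 0.793 (0.709 to 0.889); how the knockout alters this locus is not given in the sources used here. RelBko RelB gave 4.18 RPKM at 1 h, against 11.9 RPKM at 0 h, over 1.995 RPKM in the input. The 3 other Relb regions that met the first 2 conditions were kept.

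**Figure D2:**
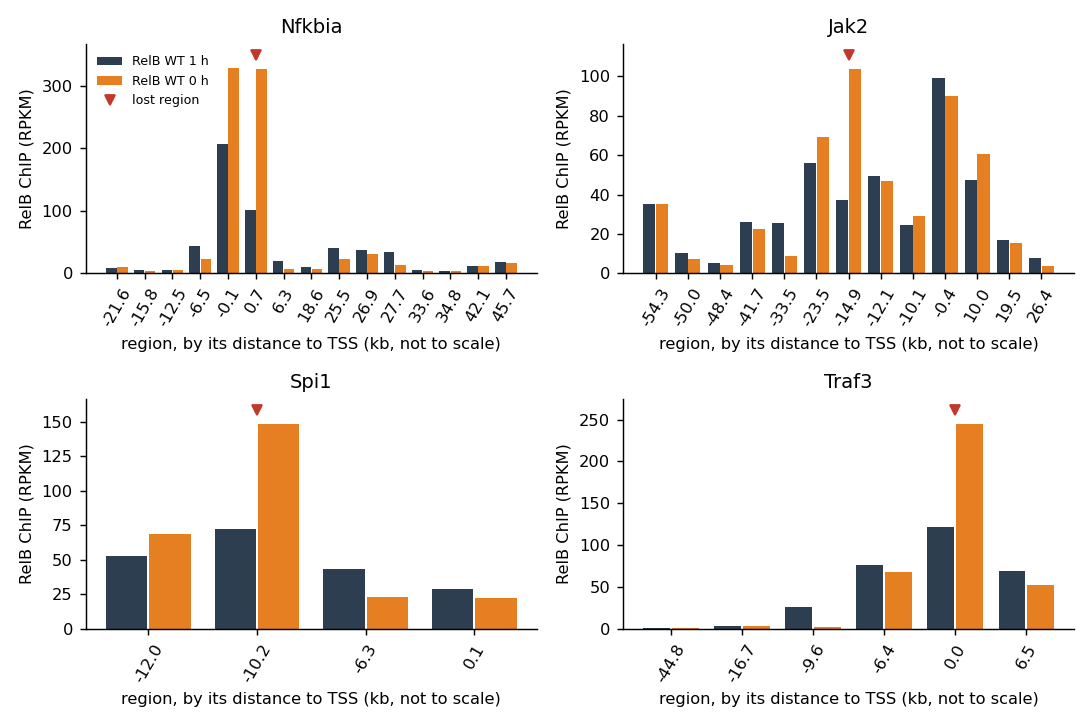
RelB ChIP signal (RPKM) in WT cells at 1 h (dark) and 0 h (orange) at every region within 60 kb of the TSS of Nfkbia, Jak2, Spi1 and Traf3, ordered by distance to the TSS but not to scale, with lost regions marked by a triangle. Each gene has 1 lost region, and other regions of the same gene have a 1 h bar above the 0 h bar.

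Other strong members lay at genes of antigen presentation and lineage control. Cd74, the invariant chain that guides class II molecules, had a promoter region at chr18:60963190-60963543 (mm9) with 86.5 RPKM at 1 h, against 180 RPKM at 0 h of WT RelB. RelA at Cd74 was 86.7 RPKM in RelBko and 98.4 RPKM in WT cells, a ratio of 0.880 (0.790 to 0.982). Spi1, which encodes PU.1, a master factor of myeloid cells, had its member 10152 bp before the TSS, with 72.7 RPKM at 1 h, against 148 RPKM at 0 h. RelA there was 46.3 RPKM in RelBko and 54.7 RPKM in WT cells, and the Spi1 region at -6295 bp from the TSS was higher for WT RelB, at 43.0 RPKM at 1 h, against 23.0 RPKM at 0 h. Jak2, a kinase of cytokine receptors, was added after its values were seen, as a gene with many regions. Its member 14938 bp before the TSS had 37.3 RPKM at 1 h, against 104 RPKM at 0 h, and none of its 12 other regions was lost. The remaining 5 of the 10 strongest members lay near Rai14, Inpp5a, Matn1, Mir6769b and Prcp, with 48.4 to 80.6 RPKM at 1 h and 137 to 162 RPKM at 0 h, and RelA there had RelBko over WT log2 ratios of -0.20 to 0.10.

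The members with the lowest RelB ratio were weak ones. The lowest lay near Dock9, an exchange factor for Cdc42, at 0.228 RPKM (2 reads) at 1 h and 4.81 RPKM (52 reads) at 0 h, a ratio of 0.0474 with an interval of 0.00560 to 0.180. RelA at this region was 0.271 RPKM in RelBko and 0.369 RPKM in WT cells, under 0.492 RPKM in the input, so RelA over input was not detectable there in either genotype at this depth. The next 7 lay near Ano2, Cbx7, Mbnl1, Nr3c1, Gm13710, Blcap and Apoa4, with 8 to 14 reads at 1 h and 46 to 79 reads at 0 h and log2 ratios from -1.93 to -1.77. Nr3c1 encodes the glucocorticoid receptor, and its member 55715 bp before the TSS had 1.38 RPKM at 1 h, against 6.33 RPKM at 0 h of WT RelB. Cbx7, a Polycomb protein, had 0.937 RPKM at 1 h, against 4.81 RPKM at 0 h in an intron, with RelA at 3.58 RPKM in RelBko and 5.21 RPKM in WT cells.

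RelA after LPS was weaker at lost than at kept regions in both genotypes. The median RelA signal at lost regions was 2.79 RPKM in RelBko and 3.32 RPKM in WT cells, and at kept regions it was 10.8 RPKM in RelBko and 11.0 RPKM in WT cells. RelA was enriched at 462 lost regions in RelBko cells (53.5%; 50.2 to 56.8), against 91.8% of kept and 75.9% of all regions. In WT cells it was enriched at 563 lost regions (65.2%; 62.0 to 68.3), against 95.5% of kept and 82.0% of all regions. At 169 lost regions (19.6%) neither RelB nor RelA was enriched in WT cells at 1 h, against 0.599% of kept and 9.18% of all regions. RelB in WT cells at 1 h enters that last count and was used by the rule, so it is a description.

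The difference in RelA level was seen in every band of RelB at rest. These bands match RelB at 0 h only. The rule held RelB low at lost regions at 1 h, the time of the RelA libraries. Median WT RelB at 1 h was 2.13 RPKM at lost and 6.15 RPKM at kept regions in the band of 4 to 8 RPKM. At 32 RPKM or more it was 22.9 RPKM at lost and 47.8 RPKM at kept regions. RelA was not compared at matched RelB at 1 h. Among regions with 4 to 8 RPKM of WT RelB at 0 h, the median RelA signal of the 364 lost regions was 1.63 RPKM in RelBko and 2.03 RPKM in WT cells, and that of kept regions was 5.32 RPKM in RelBko and 5.61 RPKM in WT cells. Among regions at 32 RPKM or more, the 141 lost ones had a median of 14.7 RPKM in RelBko and 17.99 RPKM in WT cells, and kept ones had 35.9 RPKM in RelBko and 36.1 RPKM in WT cells. All of these 141 were enriched for RelA in WT cells, as were 95.04% of the lost regions at 16 to 32 RPKM, 70.5% at 8 to 16 and 37.1% at 4 to 8. Lost regions without RelA were therefore mostly ones with weak RelB at rest.

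**Figure D3:**
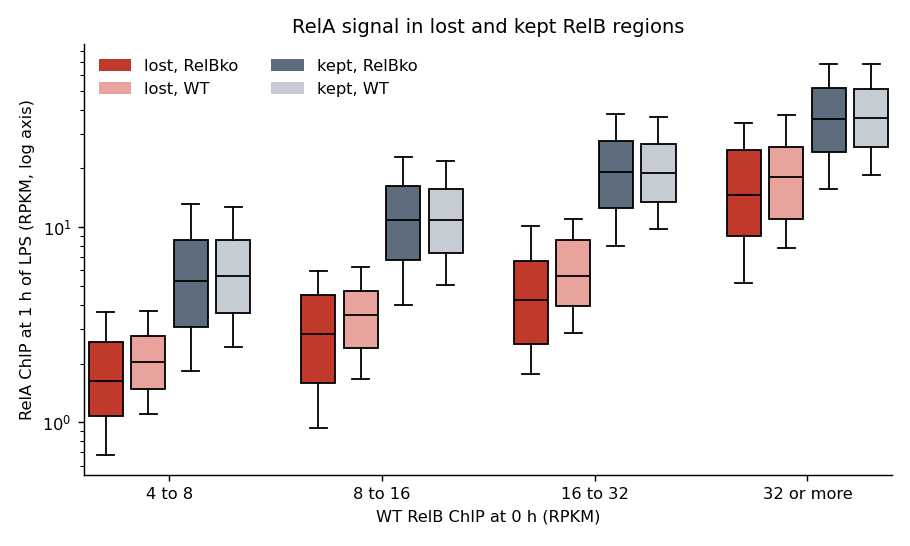
RelA ChIP signal at 1 h of LPS (RPKM, log axis) in lost (red) and kept (grey) regions, RelBko (darker) left of WT (lighter), in 4 bands of WT RelB signal at 0 h. Boxes span the quartiles with the median as a line and whiskers reach the 10th and 90th percentiles; within each band the medians of lost regions lie below those of kept ones.

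Set against RelB in the same cells, RelA after LPS lay closer to the level of RelB after LPS than to that of RelB at rest. The median log2 ratio of WT RelA over WT RelB at 1 h was -0.31 at lost and -0.24 at kept regions. Of the 694 members enriched for RelA or RelB at 1 h, RelA was higher by 2-fold or more at 19 and lower at 108, beside 7.45% higher and 7.21% lower among all such regions. Against WT RelB at 0 h, RelA at 1 h had a median log2 ratio of -1.51 at lost and -0.13 at kept regions, and was lower by 2-fold or more at 684 members, beside 9.99% of all regions. Since the rule picked members with high RelB at 0 h and low RelB at 1 h, these ratios describe the members and test nothing.

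A few members had far more RelA than RelB after LPS. The strongest case lay in an intron assigned to Galnt7, an enzyme of O-linked sugar chains, with WT RelA at 21.9 RPKM and WT RelB at 2.45 RPKM at 1 h. RelA at Galnt7 was 18.3 RPKM in RelBko cells, a RelBko over WT ratio of 0.836 (0.664 to 1.05). Csf1, the macrophage growth factor, had a member 9508 bp before its TSS with WT RelA at 10.7 RPKM and WT RelB at 1.66 RPKM (8 reads) at 1 h. In RelBko cells RelA at this Csf1 region was 3.93 RPKM, a ratio of 0.367 (0.188 to 0.689). The other 3 of this kind were the Cbx7 member, an intron of 1700071M16Rik and an intron of Lrrfip2, with RelA of 3.58 to 12.8 RPKM in RelBko and 5.21 to 11.95 RPKM in WT cells.

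RelA in RelBko cells was lower than in WT cells at most lost regions, by a small amount. The median log2 ratio was -0.24 at lost regions, -0.03 at kept regions and -0.07 over all regions. On the deposited scale, 617 of 863 lost regions (71.5%) lay below 0, against 54.1% of kept and 56.6% of all regions. RelA was lower by 2-fold or more at 80 lost regions (9.27%; 7.51 to 11.4) and higher by as much at 7, beside 5.23% lower and 1.32% higher among all regions and 3.48% lower among kept ones. At the same 863 regions the lower share was 14.8% with 0.1 RPKM added, against 4.53% of kept and 8.04% of all regions, and 4.63% with 1 RPKM added, against 2.48% of kept and 2.99% of all regions. With the libraries scaled on regions without enrichment it was 4.52%, against 2.20% of kept and 2.81% of all regions, and the median log2 ratio was -0.13 at lost, 0.07 at kept and 0.03 over all regions. Among the 605 members enriched for RelA in at least 1 genotype, 53 were lower (8.76%) and 7 higher, beside 4.94% lower and 1.30% higher among all such regions. This filter used the same RelA libraries that are compared, and more members passed through WT alone than through RelBko alone. The shares after the filter are therefore a description and no separate check. RelA was enriched in WT but not in RelBko cells at 143 lost regions (16.6%), against 4.88% of kept and 10.5% of all regions, and in RelBko but not WT cells at 42 (4.87%), against 1.19% of kept and 4.43% of all regions. Of the 80 lower members, 67 had an exact 95% interval of the read ratio below 1, which covers counting error only. The 80 were picked by this same ratio, so that count is a description.

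The share with lower RelA went with the level of RelA itself. Within bands of WT RelB at 0 h, the share lower by 2-fold was 8.79% of lost and 4.68% of kept regions at 4 to 8 RPKM, and 11.98% of lost and 3.38% of kept regions at 8 to 16 RPKM. At 16 to 32 RPKM it was 12.1% of lost and 2.41% of kept regions, and at 32 or more it was 3.55% of lost (1.52 to 8.03) and 1.97% of kept regions. Within bands of the mean RelA signal of both genotypes, a split chosen after the data were seen, the share was 14.8% of lost and 19.9% of kept regions under 2 RPKM, and 9.89% of lost and 11.5% of kept regions at 2 to 4 RPKM. At 4 to 8 RPKM it was 6.40% of lost and 4.73% of kept regions, at 8 to 16 it was 3.45% of lost and 1.52% of kept regions, and at 16 or more it was 0 of 71 lost regions and 0.288% of kept ones. Lost regions thus stood above kept ones at matched WT RelB at 0 h, with overlapping intervals at 32 RPKM or more. At matched RelA level they lay below kept ones under 2 RPKM (interval 11.1 to 19.5), at 2 to 4 RPKM (6.84 to 14.1) and at 16 RPKM or more (0 to 5.13). The intervals at 2 to 4 RPKM and at 16 RPKM or more held the kept share, so no direction can be read there. Lost regions lay above at 4 to 8 RPKM (interval 3.61 to 11.1) and at 8 to 16 RPKM (1.18 to 9.65), but both intervals held the kept share. Under 2 RPKM of RelA the median log2 ratio was -0.35 at lost and -0.44 at kept regions, with 78.1% of lost and 76.2% of kept below 0. At 2 to 4 RPKM it was -0.21 at lost and -0.27 at kept regions, with 63.9% and 69.2% below 0. It was -0.20 at lost and -0.11 at kept regions at 4 to 8 RPKM, and -0.22 and -0.007 at 8 to 16 RPKM. At 16 RPKM or more it was -0.14 at lost and 0.02 at kept regions, with 78.9% of lost and 46.1% of kept below 0. Lost regions thus had the lower median only from 4 RPKM of RelA upwards. The part that signal level plays in these shares beyond the bands was not tested.

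**Figure D4:**
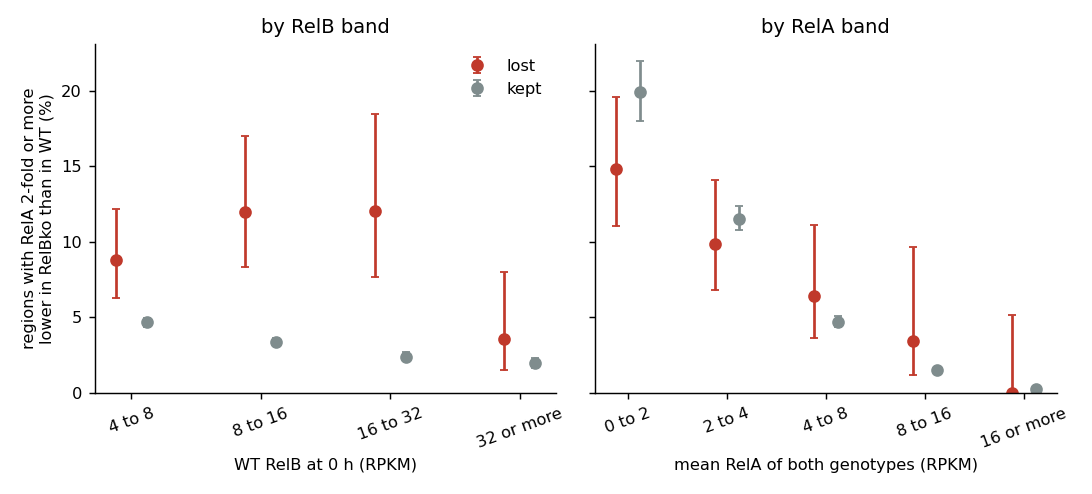
Share of lost (red) and kept (grey) regions whose RelA signal was lower by 2-fold or more in RelBko than in WT cells, by WT RelB at 0 h (left) and by the mean RelA of both genotypes (right), with 95% Wilson intervals. Lost regions lie above kept ones in each RelB band. By RelA they lie below kept ones under 4 RPKM and at 16 RPKM or more, with wide intervals. The lost interval holds the kept share in every RelA band except under 2 RPKM.

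The largest RelA differences included members with few reads and some with many. Near Mir7676-2, at chr15:78104347-78104684 (mm9), RelA was 3.33 RPKM (27 reads) in RelBko and 20.2 RPKM (120 reads) in WT cells, a ratio of 0.165 (0.105 to 0.252). WT RelB at this region was 50.9 RPKM at 1 h, against 105 RPKM at 0 h, and RelBko RelB was 1.82 RPKM at 1 h, against 1.52 RPKM at 0 h, under 2.24 RPKM in the input. It was thus a strong RelB region where little RelA signal over input remained in RelBko cells. An intron of Stk39, a kinase of the osmotic stress response, had 1.41 RPKM of RelA in RelBko and 6.89 RPKM in WT cells, a ratio of 0.205 (0.0984 to 0.396), with WT RelB at 16.9 RPKM at 1 h, against 43.5 RPKM at 0 h. An intron of Dpp10, which encodes a partner of potassium channels, had 0.136 RPKM (1 read) in RelBko and 3.14 RPKM (17 reads) in WT cells. The members near A930018P22Rik and Oxr1 complete the 5 lowest, with 0.374 and 0.401 RPKM in RelBko and 2.89 and 2.73 RPKM in WT cells, in that order. All 5 were picked by this ratio, among members enriched for RelA in at least 1 genotype, so their values are a description.

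In the other direction, RelA was higher by 2-fold or more in RelBko cells at 7 members (0.811%), beside 1.32% of all regions. Of these 7, 5 are named. They were picked by this ratio, among members enriched for RelA in at least 1 genotype, so their values are a description. For Abhd17c, Cysltr1 and Dpy19l3, WT RelA was under 2 RPKM, with 7, 5 and 7 reads in that order. These members thus passed the filter through RelBko alone. Near Abhd17c RelA was 4.43 RPKM in RelBko and 1.17 RPKM in WT cells, a ratio of 3.78 (1.66 to 10.1). Near Cysltr1, a receptor for leukotrienes, it was 5.16 RPKM in RelBko and 1.67 RPKM in WT cells, and in Dpy19l3 it was 3.69 RPKM in RelBko and 1.21 RPKM in WT cells. In Adamts6 it was 6.35 RPKM in RelBko and 2.72 RPKM in WT cells. The member assigned to Il7r, which encodes the interleukin-7 receptor, was the strongest, with 15.5 RPKM in RelBko and 7.02 RPKM in WT cells, a ratio of 2.20 (1.33 to 3.801).

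The RelB antibody gave little signal at lost regions in RelBko cells. The median was 0.910 RPKM at 1 h, against 1.30 RPKM at 0 h, beside 0.918 RPKM in the input. RelBko RelB was enriched at 24 lost regions at 1 h (2.78%) and at 128 at 0 h (14.8%), against 10.3% and 38.4% of kept regions and 6.36% and 24.1% of all regions at the same times. At 0 h, 849 members were lower by 2-fold or more in RelBko than in WT cells, beside 69.9% of all regions, and at 1 h 682 were, beside 83.9%. WT values chose the members, so these counts are a description. At rest, nearly all members thus had 2-fold or more less signal with the RelB antibody in RelBko than in WT cells, though 128 were still enriched over input.

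What remained in RelBko cells was also lower after LPS on the deposited scale and with scaling on regions without enrichment, and not with scaling to the median of compared regions. RelBko RelB at 1 h over 0 h had a median log2 ratio of -0.43 at lost regions, -0.60 at kept regions and -0.43 over all regions on the deposited scale. At the same 863 regions the median was -0.53 with scaling on regions without enrichment, and 0.50 when the libraries were scaled to a median ratio of 1 over compared regions, which adds 0.93 to every ratio. By 2-fold or more, 156 lost regions were lower (18.1%) and 11 higher, beside 18.1% lower and 1.59% higher among all regions, so the members' share was that of the background. Of the same 863, 190 were lower and 10 higher with scaling on regions without enrichment, and 6 were lower and 189 higher with scaling to the median. Among the 133 members enriched in a RelBko RelB library, 75 were lower (56.4%; 47.9 to 64.5) and 1 higher, beside 44.1% lower and 0.863% higher among all such regions. Of these members 128 were enriched at 0 h and 24 at 1 h. The filter thus let in mostly members that were high at 0 h, which itself favours a lower ratio, so these shares are a description. The Nfkbia intron, the Relb promoter, the Cd74 promoter, the Traf3 promoter and a region near Zmiz2 held the most signal at 0 h, with 9.78 to 20.6 RPKM, and 3.48 to 5.92 RPKM at 1 h. Near Zmiz2, which encodes a coregulator, WT RelB was 63.6 RPKM at 1 h, against 135 RPKM at 0 h. These were strong WT RelB regions too.

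Lost regions lay away from promoters. Introns held 49.8% of lost regions (46.5 to 53.2) and 42.3% of kept ones, and 42.4% of lost regions (39.2 to 45.7) and 36.7% of kept ones lay between genes. Promoters held 27 lost regions (3.13%; 2.16 to 4.51), against 15.4% of kept and 11.0% of all regions. Only 0.320% of promoter regions that met the first 2 conditions were lost, against 1.82% of those in introns and 1.79% of those between genes. The median distance to the TSS was 26.1 kb for lost, 14.4 kb for kept and 18.4 kb for all regions. Within 1 kb of a TSS lay 39 lost regions (4.52%) and 21.4% of kept ones, and beyond 100 kb lay 136 lost regions (15.8%) and 9.63% of kept ones. Class and distance did not enter the rule.

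The shortage of promoters depended on the strength of RelB at rest. At 4 to 8 RPKM of WT RelB at 0 h, promoters made up 0.824% of lost and 12.8% of kept regions, and at 8 to 16 RPKM they made up 1.84% of lost and 19.9% of kept regions. At 16 to 32 RPKM the shares were 4.26% of lost and 16.3% of kept regions. At 32 RPKM or more they were 9.93% of lost and 9.80% of kept regions, so among the strongest regions promoters were lost in proportion.

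**Figure D5:**
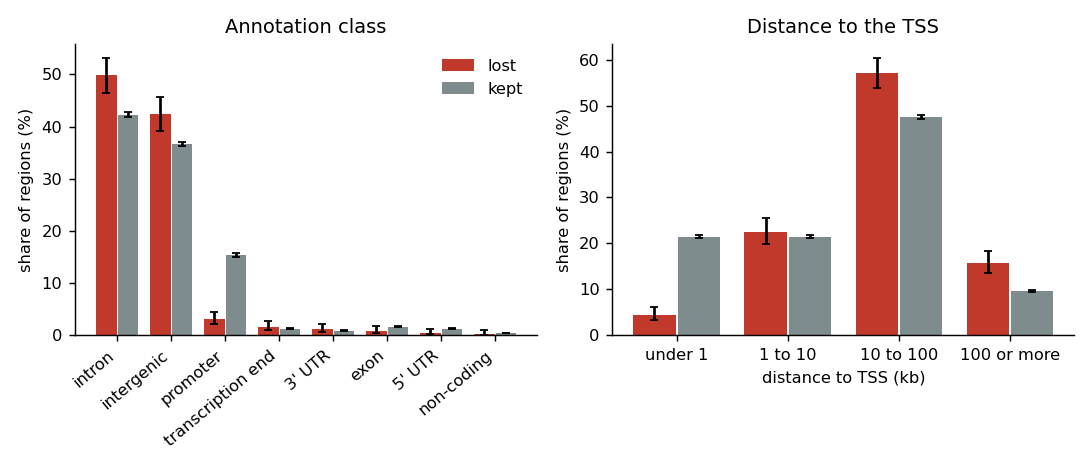
Share of lost (red) and kept (grey) regions in each annotation class (left) and each range of distance to the TSS (right), as percent of regions with 95% Wilson intervals. The lost bar is far below the kept bar for promoters (3.13% and 15.4%) and for distances under 1 kb (4.52% and 21.4%).

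The 27 promoter members had stronger signal than other members. Their median WT RelB was 13.7 RPKM at 1 h, against 32.7 RPKM at 0 h, and their median RelA was 13.6 RPKM in RelBko and 12.2 RPKM in WT cells, with a median of the regions' log2 ratios of -0.17. None of the 27 had RelA lower or higher by 2-fold. Among kept promoter regions 0.523% were lower. Of all 10262 promoter regions 1.02% were lower and 47 were higher. At such shares 27 regions are too few to read a difference from. Beside Traf3, Cd74 and Relb, the strongest were those of Rabgap1, Mir1932, Ube2d3, Trappc3, 4930583K01Rik, Abhd16b and Zfp429. Ube2d3, a ubiquitin-conjugating enzyme, had WT RelB at 31.5 RPKM at 1 h, against 64.8 RPKM at 0 h, and RelA at 36.9 RPKM in RelBko and 35.9 RPKM in WT cells. The Zfp429 promoter, printed above with its kB site, had WT RelB at 15.4 RPKM at 1 h, against 38.7 RPKM at 0 h, and RelA at 19.5 RPKM in RelBko and 22.4 RPKM in WT cells. The Lif promoter, of a cytokine of the interleukin-6 family, had WT RelB at 7.42 RPKM at 1 h, against 15.7 RPKM at 0 h, and RelA at 11.1 RPKM in RelBko and 8.49 RPKM in WT cells.

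Lost regions were spread over all 20 chromosomes, from 1.02% of the regions that met the first 2 conditions on chromosome 11 to 2.40% on X. They were assigned to 778 of 15285 genes, 701 with 1 lost region, 70 with 2 and 7 with 3 or more, and a gene with a loss had a median of 5 regions that met the first 2 conditions. Marcks, a protein that ties the membrane to actin, had the most, with 4 of 45, all between genes and 57258 to 363782 bp from its TSS. The others were 1810013L24Rik, B230303A05Rik, 4930459C07Rik, St8sia4, Gpr34 and Slc17a6, with 3 each. In Gpr34, a receptor of myeloid cells for lysophosphatidylserine, 3 of 8 were lost, with 1.68 to 3.24 RPKM at 1 h and 4.35 to 7.11 RPKM at 0 h. For 75 genes the only region that met the first 2 conditions was lost, and for 4 genes with more than 1 all were. One of these was Nek11, a cell cycle kinase, with 12.6 and 13.9 RPKM at 1 h and 35.8 and 33.2 RPKM at 0 h at its intron regions. Assignment is to a gene by the deposited annotation and does not show that the region acts on it.

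Neighbours of lost regions leaned the same way. Another region that met the first 2 conditions lay within 10 kb of 563 lost regions (65.2%) and of 74.1% of kept ones. The nearest one had a median RelB log2 ratio in WT cells of -0.25 beside lost and 0.09 beside kept regions. Another lost region lay within 10 kb of 50 lost regions (5.79%; 4.42 to 7.56) and of 1.82% of kept ones. These values come from the libraries the rule used and are a description.

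By gene lists, with regions within 100 kb of a TSS, losses were sparse everywhere. Over all genes, 675 of 15002 had a lost region (4.50%), and 727 of 50175 regions were lost (1.45%). Of NF-kB pathway and feedback genes, 5 of 36 had one (Nfkbia, Relb, Traf2, Ripk2 and Tnip3), 5 of 258 regions, and of noncanonical NF-kB and lymphoid chemokine genes 1 of 10 (Traf3), 1 of 59 regions. Ripk2, the kinase behind NOD receptors, had 10.3 RPKM at 1 h, against 21.1 RPKM at 0 h, and Tnip3, a partner of the inhibitor A20, had 2.06 RPKM at 1 h, against 5.65 RPKM at 0 h of WT RelB.

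Inflammatory cytokine and chemokine genes had a lost region in 6 of 35, 7 of 210 regions. At Il1a, an alarm cytokine, WT RelB was 13.8 and 3.20 RPKM at 1 h and 28.5 and 8.52 RPKM at 0 h at its 2 members, 3773 and 5286 bp from the TSS. Il1b, its inflammasome-processed relative, had 2.49 RPKM at 1 h, against 5.78 RPKM at 0 h of WT RelB, with RelA at 8.78 RPKM in RelBko and 9.78 RPKM in WT cells. Il12b, the shared subunit of interleukins 12 and 23, had 5.14 RPKM at 1 h, against 12.04 RPKM at 0 h of WT RelB. Cxcl16, a chemokine that is also a scavenger receptor, had 24.2 RPKM at 1 h, against 53.3 RPKM at 0 h, and RelA at 3.24 RPKM in RelBko and 8.12 RPKM in WT cells, a log2 ratio of -1.20. Csf1 and Lif, described above, were the others.

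Of dendritic cell maturation and antigen presentation genes, 6 of 30 had a lost region, 6 of 206 regions, counting Cd74, Relb and Marcks. H2-Ab1, a class II beta chain, had 18.7 RPKM at 1 h, against 43.9 RPKM at 0 h, with RelA at 16.7 RPKM in RelBko and 19.6 RPKM in WT cells. Tapbp, tapasin of the class I loading complex, had 42.7 RPKM at 1 h, against 99.8 RPKM at 0 h, with RelA at 33.5 RPKM in RelBko and 33.3 RPKM in WT cells. Pdcd1lg2, the inhibitory ligand PD-L2, had 15.5 RPKM at 1 h, against 32.7 RPKM at 0 h. The RelA values of Tapbp were alike, and those of H2-Ab1 were lower in RelBko by less than 2-fold.

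Myeloid and dendritic cell lineage genes had a lost region in 5 of 36, 5 of 267 regions. Beside Spi1 these were Lyz1 (lysozyme), Irf4, Klf4 and Mertk, the last a receptor for dying cells. Lyz1 had 41.1 RPKM at 1 h, against 92.6 RPKM at 0 h of WT RelB, and Irf4, a factor of dendritic cell subsets, had 13.4 RPKM at 1 h, against 30.1 RPKM at 0 h. Interferon and antiviral genes had 1 of 32, which was Socs1, the feedback inhibitor of JAK kinases, with 53.3 RPKM at 1 h, against 109 RPKM at 0 h of WT RelB and RelA at 29.5 RPKM in RelBko and 36.2 RPKM in WT cells. Nuclear receptor genes had 3 of 21, namely Nr3c1, Rora and Ahr, and 4 of 117 regions.

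Chromatin regulator genes had 2 of 29, Cbx7 and Ezh2, the methyltransferase of Polycomb, which had 18.6 RPKM at 1 h, against 40.2 RPKM at 0 h in an intron. Immediate early genes had 0 of 25 with a lost region and 0 of 201 regions, survival and stress genes 0 of 22 and 0 of 158 regions, and housekeeping genes 0 of 19 and 0 of 74 regions. Among markers of other cells of the marrow, T and NK cell genes had 2 of 17 (Cd4 and Il7r), and neutrophil, B cell, and erythroid and mast cell genes had 0 of 5, 0 of 6 and 0 of 6. Cd4, which some dendritic cells also carry, had a region 10346 bp before its TSS with 22.3 RPKM at 1 h, against 66.2 RPKM at 0 h of WT RelB. Genes of several lists had more regions than the average gene, with 7.17 per gene for NF-kB pathway genes, 6.87 for dendritic cell maturation genes and 6.00 for cytokine genes, against 3.34 over all genes. By region, the lost shares of these 3 lists were 1.94%, 2.91% and 3.33% in that order, against 1.45% over all genes. Whether any list differs from all genes was not tested.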

How the data were processed

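RelA and RelB ChIP-seq in WT and RelBko BMDCs was measured in 7 libraries, 1 per group. The extraction text names an anti-RelA antibody for every library, and the antibody field names RelB or RelA as used here. The authors deposited RPKM values, per the file headers, for each library over 93611 common regions, with the gene, class and distance to the TSS (bp) from the authors' annotation; classes were read from shortened words. HISAT2, HOMER, bedtools and the build mm9 are named in the submitters' processing notes, while their roles and versions and the choice of regions were not given in the sources used here. Deposited starts count from 0 and are printed from 1. Library totals and reads per region were recovered from RPKM times length (100% of values whole within 0.01 read). 0 other value columns were found.

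Ratios are log2 of RPKM + 0.5, which makes changes at low values look smaller than they were. Enriched means 2 RPKM or more and 2-fold or more over input, and 2-fold or more was called. Shares have 95% Wilson intervals and read ratios have exact (Clopper-Pearson) 95% intervals; both reflect only the error of counting, as reads are not independent molecules. No test was run, since each group held 1 library. Python 3.11.15, pandas 2.3.3, numpy 2.4.6, scipy 1.17.1 and matplotlib 3.10.9 were used, and the selection was tested on simulated data.

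The named regions were the 10 members of highest RelB at 0 h, the 8 of lowest RelB ratio, the 10 strongest promoters, the 5 highest and 5 lowest RelA ratios among RelA-enriched members, the 5 of highest RelA over RelB, the 5 of highest RelBko RelB at 0 h, list members, genes with most members and those next to each limit. Members and the 15 lists were chosen with earlier results of these data known. Of 357 listed genes, 341 matched a gene of the annotation. No mm9 genome was used here, so region sequences are not printed.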

Additional observations from a re-analysis of the deposited data

Results flagged for a closer look

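The region near Khdc3, an oocyte factor, at chr9:72953600-72953954 (mm9), was flagged because its RelB signal differed in opposite directions in the genotypes. RelBko RelB there was 5.06 RPKM (35 reads) at 1 h, against 1.61 RPKM (10 reads) at 0 h, a log2 ratio of 1.40, whereas WT RelB was 4.46 RPKM at 1 h, against 9.48 RPKM at 0 h. It was the only member enriched in a RelBko library with RelBko RelB higher by 2-fold, among 11 such members in all. With 1 library per group the difference was not tested.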

How the results depend on the processing

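Lost and kept regions were chosen anew under each setting, so these values are not all over the same 863 regions. The number of lost regions depended most on the fold limit, with 33 at 3-fold and 4813 at 1.5-fold, against 863. It was 1684 with libraries scaled to a median ratio of 1, 499 with a minimum of 8 RPKM and 1428 with no minimum, and the genes numbered 32, 3400, 1428, 464 and 1253 under the same 5 settings. The share of lost regions with lower RelA in RelBko cells was 14.4% with 0.1 RPKM added, 3.84% with 1 RPKM, 6.65% with median scaling, 4.71% with scaling on regions without enrichment, 6.06% at 3-fold and 6.03% at 1.5-fold, and kept regions gave 4.48%, 2.50%, 2.95%, 2.19%, 3.56% and 3.33% in the same order, below the lost share each time. The median log2 RelA ratio was -0.20 with 1 RPKM added, -0.17 with median scaling, -0.13 with scaling on regions without enrichment, -0.17 at 3-fold and -0.18 at 1.5-fold. These scalings shifted the RelA comparison by 0.06 and 0.10 and WT RelB by -0.14 and -0.09.

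RelBko RelB at 1 h over 0 h reversed, with a median of 0.46 over the 1684 regions that were lost under median scaling (12 lower, 322 higher); the lower share was then 0.713%, in a scaling that by construction sets the median of compared regions to 0. The median RelA ratio of kept regions also changed sign, to 0.02 with median scaling and 0.07 with scaling on regions without enrichment. The cause of the other changes was not tested. With 0.1 and 1 RPKM added the median was -0.58 and -0.34 and the share 28.2% and 11.2%. With scaling on regions without enrichment they were -0.56 and 24.3%, with a minimum of 8 RPKM -0.53 and 21.4%, with no minimum -0.34 and 15.1%, at 1.5-fold -0.52 and 21.9%, and among members enriched in RelBko -1.11 and 56.4%. The last of these filters used the libraries compared and let in mostly members high at 0 h. The promoter share was 4.81% with a minimum of 8 RPKM and 4.52% as the share within 1 kb of a TSS. RelA was enriched in WT cells at 68.6% of lost regions with 0.1 RPKM added, 61.9% with 1 RPKM, 70.6% with median scaling, 70.2% with scaling on regions without enrichment, 85.8% with a minimum of 8 RPKM, 47.7% with no minimum, 39.4% at 3-fold and 78.2% at 1.5-fold. Of 63 named regions, 13 no longer met the RelB limit with 1 RPKM added, the RelA call of 1 changed with 0.1 RPKM and of 1 with 1 RPKM, and none reversed. The RelA enrichment and gene counts, the RelA bands and the values over the fixed 863 members were added after seeing the data.

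No paired analysis was possible because each group holds 1 library, and for the same reason no library could be left out. Read numbers may be 1 too high if the authors added a read before scaling; taking 1 read off gave 919 lost regions. With a median of 20 to 23 RelA reads at a member, a 2-fold difference at a weak member is close to counting error.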
